A study of Mus musculus with 2 samples.

Results

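Peaks of phosphorylated HLXB9 were described around 2 genes, Cblb and Met, in mouse insulinoma cells. They are the peaks that overlap a 400 kb stretch of chromosome 16 named for Cblb (51.9 to 52.3 Mb, build mm9) and a 350 kb stretch of chromosome 6 named for Met (17.3 to 17.65 Mb). Peaks were taken by position within these stretches, whatever their score, although the genes themselves were picked with earlier results of these data known. The Cblb window held 12 peaks and the Met window 13, which makes 25 of the 83676 peaks in the whole list. MIN6-4N cells, a mouse insulinoma line, carried a transfected plasmid that expresses tagged HLXB9, and chromatin was collected 48 hours later. One group was the immunoprecipitation with an antibody against phosphorylated HB9 (anti-HB9PO4), and the other was input chromatin from the same kind of cells with no antibody, each with 1 library. Both libraries came from cultures transfected to overexpress HLXB9, and neither the level reached nor the share of cells transfected was analysed here. Neither a control antibody nor untransfected cells formed a group, and since each group was 1 library, values carry no replicate error and groups could not be tested against each other. Tag numbers were not analysed here, which leaves the depth of every peak unknown.

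The homeodomain protein HLXB9, whose other names are HB9 and MNX1, regulates transcription in β-cells and motor neurons. Cblb encodes Cbl-b, a RING-type E3 ubiquitin ligase that attaches ubiquitin to activated signalling proteins and so dampens receptor signalling. Met encodes c-Met, the receptor tyrosine kinase for hepatocyte growth factor, which drives growth, survival and motility of epithelial cells and is active in β-cells. Cbl proteins bind activated c-Met and direct it to degradation, so the ligase and the receptor stand on opposite sides of one pathway. As far as is known from the title of the study's paper, whose text was not used here, the authors relate HLXB9 to lower Cblb, as an inhibitor of c-Met, in insulinoma cells. The question put to the peak list here was where phospho-HLXB9 was enriched around both genes. Expression of Cblb and Met was not measured in these data. Both genes were taken here as proposed HLXB9 targets, with earlier results of these data known. Peaks near them are therefore not independent evidence of targeting. Whether the authors proposed Met itself as a target, and from which data, was not checked here.

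The sequence just before each gene's start is shown because a factor that acts on these genes could bind there. It was copied from RefSeq, build GRCm38.p6, and covers the 250 bases upstream of the annotated start, 5′ to 3′ on the + strand, with each CG dinucleotide in capitals. Cblb (gene ID 208650) lies at chr16:52031299-52031548 and Met (gene ID 17295) at chr6:17463707-17463956 in that build. These positions belong to another build than the peaks and were not converted to mm9. They were therefore not set against the peak positions, and no peak was assigned to a gene start.
Cblb: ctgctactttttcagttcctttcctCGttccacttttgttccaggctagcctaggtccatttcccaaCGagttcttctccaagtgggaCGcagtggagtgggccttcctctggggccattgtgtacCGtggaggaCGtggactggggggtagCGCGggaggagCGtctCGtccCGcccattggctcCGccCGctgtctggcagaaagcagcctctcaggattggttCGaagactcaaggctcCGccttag
Met: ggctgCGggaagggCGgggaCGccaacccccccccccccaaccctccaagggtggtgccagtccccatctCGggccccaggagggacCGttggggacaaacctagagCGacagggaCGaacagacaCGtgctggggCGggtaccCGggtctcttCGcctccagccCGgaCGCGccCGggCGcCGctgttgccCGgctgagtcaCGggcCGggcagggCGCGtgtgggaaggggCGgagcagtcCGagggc

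Both upstream sequences were richer in G and C than the median gene. The Met sequence was 74.0% G and C and held 24 CG dinucleotides, against medians of 52.4% and 6 over 32851 upstream sequences of the same length. The Cblb sequence was closer to these medians, at 58.8% and 14 CG dinucleotides. Of all upstream sequences, 4.91% were at least as rich in G and C as that of Met and 31.1% at least as rich as that of Cblb. For CG dinucleotides, 12.0% held at least as many as that of Met and 29.4% at least as many as that of Cblb. Homeodomain proteins commonly recognise a core of TAAT, and the longer forms TAATTA and TAATTG were searched beside it on both strands. TAAT lies within both longer forms. None of the 3 motifs was found in these 250 bases of Cblb or of Met. TAAT was present in 54.9% of all upstream sequences, TAATTA in 4.84% and TAATTG in 7.17%. These shares were not matched for G and C content, which was above the median in both genes. The absence of these letters describes this window only.

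In the Cblb window the enrichment was carried by 1 strong peak among mostly weak ones. The scores are the authors' own and were read on the caller's scale, 10 times −log10 p, so that 50 stands for 1e-05 and 100 for 1e-10. The strongest peak, on chromosome 16 from 52031078 to 52032438, was 1361 bp wide and scored 103.1. It ranked 1223 of 83676 in the whole list and 43 of 3228 on its chromosome. The next in score was a 693 bp peak from 52179835 to 52180527, which scored 69.4 and ranked 6275. Their centres were 148.4 kb apart, and the first scored 1.49 times as high as the second. No other peak of this window reached 50.

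The other 10 peaks around Cblb scored from 30.01 to 48.0, where the lowest score of the list is 30 and its median 39.2. Close to 50 were a 1198 bp peak (52165940 to 52167137) with a score of 48.0 and rank 22905, and a 612 bp peak (52142748 to 52143359) with 47.9 and rank 23086. With the peak of 69.4 these formed a loose row of 3 over the later part of the window, 111.3 to 148.4 kb past the strongest peak. A 631 bp peak lay 3.64 kb after the strongest one (52036076 to 52036706), with a score of 39.2 and rank 41908. Peaks at 52276860 to 52277339 (480 bp) and 52096132 to 52096808 (677 bp) scored 38.0 and 36.9, with ranks 45918 and 49713. These 3 lay within 3 units of the list's median score.

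The remaining 5 peaks of the Cblb window were among the weakest of the list. The first of the window (51912149 to 51912681, 533 bp) scored 33.4 and ranked 64181, and the one after it (51922778 to 51923224, 447 bp) scored 31.7 and ranked 73106. A pair 1377 bp apart, at 52004696 to 52005158 (463 bp) and 52006536 to 52006898 (363 bp), scored 30.01 and 31.2, with ranks 83528 and 76439. This pair was the closest spacing in the window and ended 24179 bp before the strongest peak. A 792 bp peak at 52204397 to 52205188 scored 30.7 and ranked 79415. The longest stretch without a peak, 81.5 kb, ran from 51923225 to 52004695, ahead of that pair. A stretch with no peak passed no limit of the caller and is not shown to be unbound.

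In the Met window 2 strong peaks stood out, the first between its start and its middle and the second near its end. The first, on chromosome 6 from 17413468 to 17414840, was 1373 bp wide and scored 190.8. It ranked 102 of 83676 in the whole list and 7 of 5182 on its chromosome. The second, from 17643359 to 17644811, was 1453 bp wide, scored 119.8 and ranked 648 in the list and 38 on the chromosome. The first scored 1.59 times as high as the second, and 229.9 kb separated their centres. The second lay only 5.19 kb inside the end of the window, so its place among the peaks of Met depends on where the window was drawn. GRCm38.p6 served for gene names and order and for the upstream sequences above, and was not set against peak positions. In that build the protein-coding gene before Met is Cav1, a caveolin, and the one after it is Capza2. The latter encodes a subunit of the actin capping protein. Cblb is flanked there by Ccdc54 and by Alcam, a cell adhesion molecule. Which of these neighbours reach into the mm9 windows was not determined, so a peak here is named by its window and not by a gene.

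**Figure D1:**
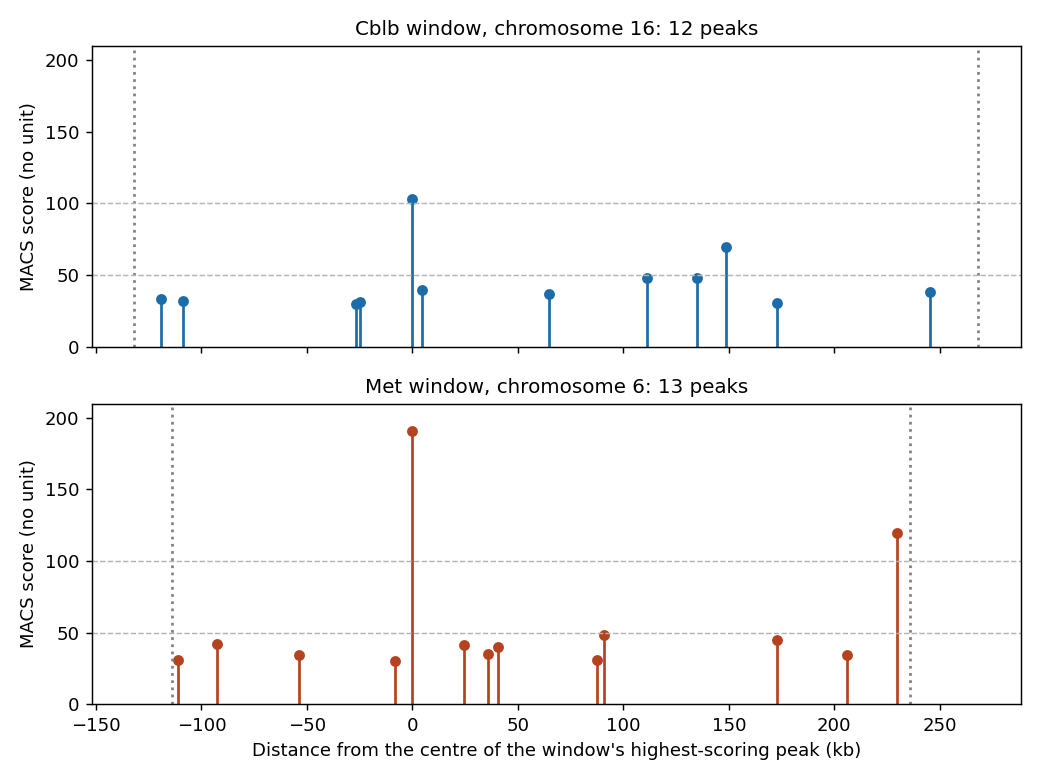
Every peak of the Cblb window (top, 12 peaks) and of the Met window (bottom, 13 peaks) is drawn at its distance in kb from the centre of the window's highest-scoring peak, with its MACS score on the vertical axis. Dotted lines are the window's ends and dashed lines the scores 50 and 100. The scores of 103.1 in the Cblb window and of 190.8 and 119.8 in the Met window stand above the upper dashed line, and only 69.4 lies between the dashed lines.

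The other 11 peaks around Met all scored below 50. A 446 bp peak (17504712 to 17505157) had 48.5 and rank 22263, and a 579 bp peak (17586600 to 17587178) had 44.8 and rank 28495. A 376 bp peak (17321163 to 17321538) scored 41.7 with rank 35015, and a 720 bp peak (17438340 to 17439059) scored 41.3 with rank 36172. These 4 were the only peaks between 40 and 50 in this window, and they were spread over it. A 727 bp peak at 17454268 to 17454994 had 39.9 and rank 39914, and its neighbour 3912 bp earlier (17449722 to 17450355, 634 bp) had 34.9 and rank 57426. Together with the peak of 41.3 they formed a group of 3 located 24.5 to 40.5 kb past the strongest peak.

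The last 5 peaks of the Met window lay near the caller's limit. Scores of 34.3 were given to a 577 bp peak (17360149 to 17360725, rank 60163) and to a 684 bp peak (17619804 to 17620487, rank 60323). An 840 bp peak (17501186 to 17502025) scored 30.8 and ranked 78610, although it was the widest of the weak peaks. It lay 2686 bp before the peak of 48.5, the shortest gap in the window. A 352 bp peak (17303053 to 17303404) scored 30.7 with rank 79415, tied with 1 of the Cblb window. A 595 bp peak (17405675 to 17406269) scored 30.02 with rank 83491 and was the nearest to the strongest peak, 7.20 kb before it. The longest stretch without a peak was 81.4 kb, from 17505158 to 17586599, about as long as that of the Cblb window.

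The number of peaks in either window was ordinary for its chromosome. The Cblb window held 12 peaks (95% exact Poisson interval 6.20 to 21.0), against a median of 13 over 245 end-to-end windows of 400 kb on chromosome 16 (10th to 90th percentile 5.40 to 22). Of those windows, 107 held fewer peaks, 12 as many and 126 more, so that 56.3% reached the number at Cblb. The Met window held 13 peaks (6.92 to 22.2), against a median of 11 over 427 windows of 350 kb on chromosome 6 (4 to 21). There 247 windows held fewer peaks, 15 as many and 165 more, and 42.2% reached the number at Met. Counting error alone enters these intervals, and clustering of peaks would widen them. Per Mb, the Cblb window had 30 peaks against 34.0 on chromosome 16, and the Met window 37.1 against 35.4 on chromosome 6. Peaks covered 2.06% of the Cblb window and 2.67% of the Met window, against 2.44% and 2.60% of their chromosomes. Chromosome values per Mb and of cover were taken over the stretch from the first to the last peak. The end-to-end windows also include the sequence before the first peak.

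**Figure D2:**
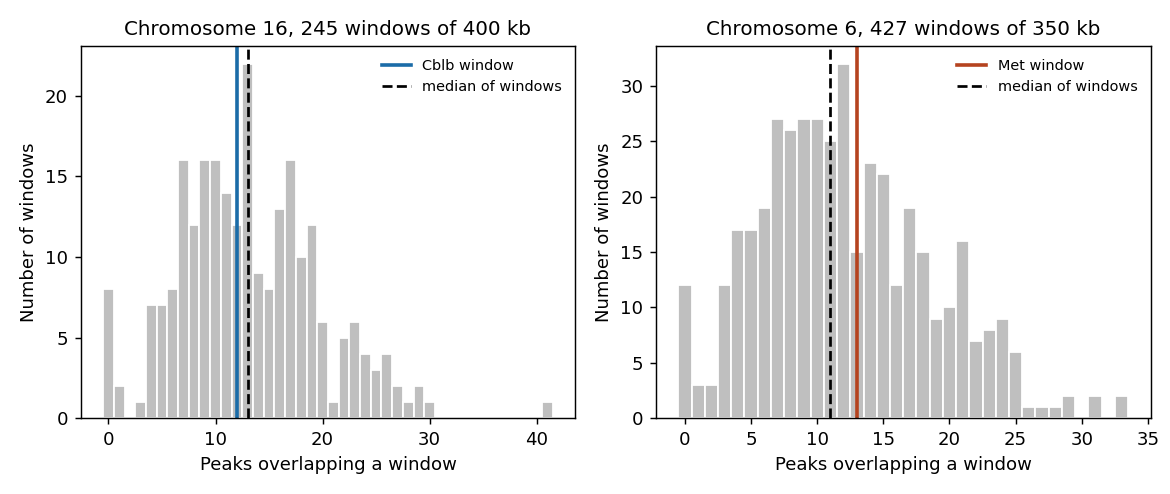
Histograms show how many peaks overlapped each of 245 end-to-end windows of 400 kb on chromosome 16 (left) and 427 of 350 kb on chromosome 6 (right), with the number of windows on the vertical axis. The coloured line is the gene's window and the dashed line the median, 12 against 13 at Cblb and 13 against 11 at Met.

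Windows next to those of Cblb and Met held similar numbers of peaks but no peak of 100 or more. Most windows of these sizes held none, since 16.7% on chromosome 16 and 14.3% on chromosome 6 had at least 1. The 400 kb before the Cblb window held 11 peaks with a highest score of 65.1, and the 400 kb after it held 9 with a highest of 73.9. The 350 kb before the Met window held 15 peaks with a highest score of 64.2, and the 350 kb after it held 13 with a highest of 78.7. At Cblb the peaks nearest the window's ends scored 33.4 and 38.0 inside it, and 34.0 and 73.9 outside it. At Met they scored 30.7 and 119.8 inside, and 35.3 and 36.0 outside. No peak lay across an end of either window. The middle 200 kb of the Cblb window held 8 of its 12 peaks, and the middle 175 kb of the Met window 7 of its 13, the strongest peak included in each case.

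The number of peaks of at least 50 was ordinary for windows of these sizes, whose median was 2 on either chromosome. Both gene windows had 2 such peaks, out of 12 and 13. In the whole list 24.1% of peaks reached 50, with 22.4% on chromosome 16 and 23.1% on chromosome 6. At least 2 such peaks were found in 69.4% of the chromosome 16 windows and in 64.9% of the chromosome 6 windows. The median score was 37.4 in the Cblb window against 39.0 on its chromosome, and 39.9 in the Met window against 38.9. At Cblb 1 of 12 peaks had a score of 100 or more, and at Met 2 of 13 did. This share was 1.66% in the whole list, 1.46% on chromosome 16 and 1.31% on chromosome 6.

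By the height of its strong peaks the Met window ranked high on chromosome 6. A peak as high as 190.8 was found in 7 of 427 windows (1.64%), 1 of which held this same peak, and the median of the highest scores was 69.3. Likewise 7 of the 427 windows (1.64%) held at least 2 peaks of 100 or more. This place rests on the second Met peak, 5.19 kb from the window's end, since 61 of the 427 windows (14.3%) held at least 1 such peak. The Cblb window stood out less. A peak of at least 103.1 was found in 38 of 245 windows (15.5%), again counting 1 with the same peak, where the median of the highest scores was 70.3, and 41 windows (16.7%) had at least 1 peak of 100 or more. Among windows within 2 peaks of the same number, 7 of 73 on chromosome 16 had a highest score above that of Cblb, and 3 of 117 on chromosome 6 one above that of Met. With windows slid by 10 kb the shares at or above were 15.0% for Cblb and 1.65% for Met. Such windows overlap one another, and 40 of them for Cblb and 35 for Met had the gene window's own highest score. These places in the order are descriptions of 1 list, and the choice to set out the highest peak was made with its value known.

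**Figure D3:**
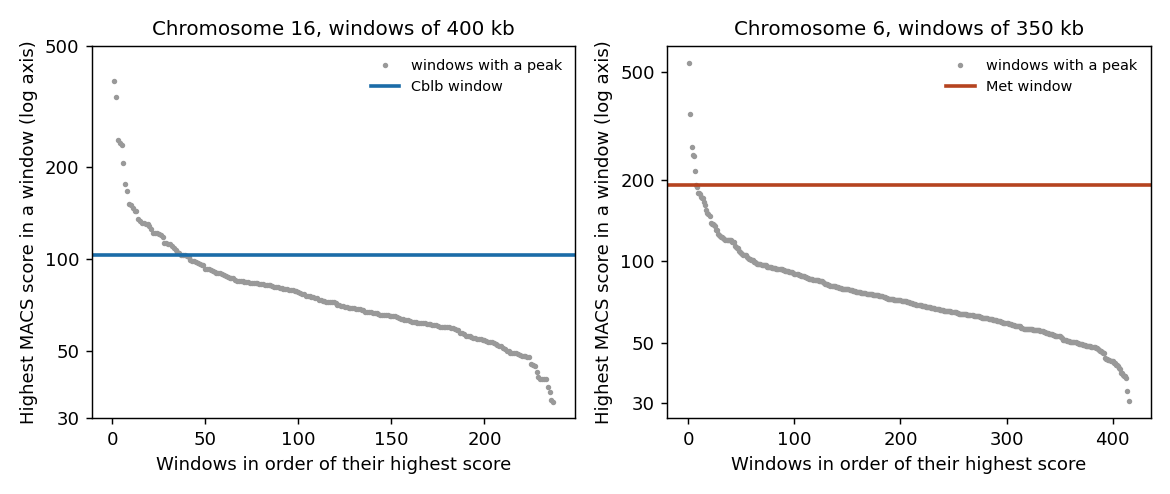
Grey points are the highest MACS score (log axis) in each window that held a peak, in falling order, for 400 kb windows on chromosome 16 (left) and 350 kb windows on chromosome 6 (right). The coloured line marks the Cblb window at 103.1, reached by 38 of 245 windows, and the Met window at 190.8, reached by 7 of 427.

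The strongest peaks of both windows had nearly the same width but not the same score. That of Met scored 1.85 times as high as that of Cblb and was 12 bp wider. Among 1285 autosomal peaks with a score from 100 to 200 the median width was 1235 bp. Of these, 43.0% were at least as wide as the Cblb peak, 41.9% as wide as the first Met peak and 36.6% as wide as the second. None of the 3 was thus unusual in width within this range of scores. Widths of peaks close to the first Met peak in score were not compared. Among all 1379 autosomal peaks of 100 or more, 88.3% scored at least as high as the Cblb peak, 7.32% as high as the first Met peak and 46.6% as high as the second. The Cblb peak thus lay near the lower end of the strong peaks and the first Met peak near the upper end.

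Peak widths around both genes were close to those of their chromosomes. Median width was 622 bp in the Cblb window and 634 bp in the Met window, against 644 bp and 648 bp on their chromosomes. The range was 363 to 1361 bp at Cblb and 352 to 1453 bp at Met. Of the 25 peaks, 4 were at least 1 kb wide, the 3 with a score of 100 or more and the peak of 48.0 at Cblb. The share of peaks this wide was not counted over the list or the chromosomes. The number is therefore not shown to be high or low, and the 3 strong peaks were ordinary in width for their scores, as described above. In the Cblb window the highest-scoring peak was also the widest, which held for 66 of 235 windows with at least 2 peaks on chromosome 16 (28.1%). In the Met window the widest peak was the second in score.

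**Figure D4:**
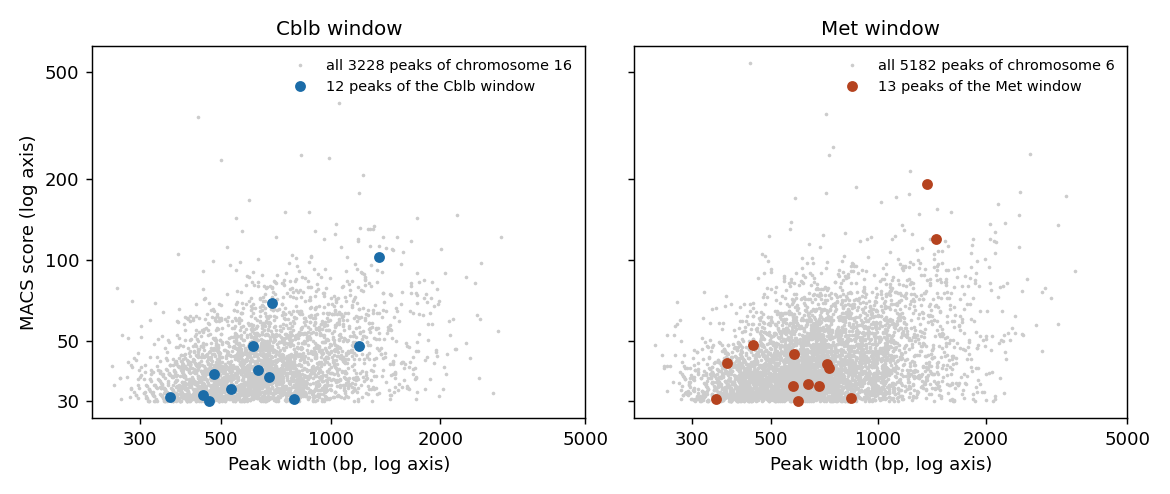
Each point is a peak, with its width in bp and its MACS score on log axes, for chromosome 16 with the Cblb window in blue (left) and chromosome 6 with the Met window in orange (right). Grey points are all 3228 and 5182 peaks of the chromosomes, and most coloured points lie among the narrow, low-scoring ones, with 1 point of 100 or more at Cblb and 2 at Met.

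Spacing differed between the strong peaks. The nearest peak to the Cblb peak of 103.1 lay 3.64 kb away, and that to the Met peak of 190.8 lay 7.20 kb away, on either side of the median of 6.06 kb for autosomal peaks of 100 or more. The second Met peak was more alone, with 22.9 kb to its nearest neighbour, and 12.8% of those peaks had a longer distance. To the nearest other peak of 100 or more, the distance was 1598 kb for the Cblb peak and 228.5 kb between the 2 Met peaks, against a median of 429.6 kb. For 34.5% of the autosomal peaks of 100 or more, another such peak was as near as in the Met window, and for 85.5% one was as near as for the Cblb peak. Within the windows, the median gap between neighbouring peaks was 23.9 kb at Cblb and 23.2 kb at Met, against 17.2 kb and 16.3 kb on their chromosomes. The chromosome medians pool all gaps, so stretches dense in peaks weigh more in them. Gaps were not compared with those of equal windows, so neither window is shown to be unusually sparse.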

How the data were processed

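The deposited file is 1 list of peaks. Per the submitters' processing notes, MACS (given as version 1.42) and build mm9 were used. The score of each peak was deposited by the authors without a header and is used only to describe and rank peaks of this list. That the list compares the ChIP with the input library was inferred from the labels. The aligner and read filters were not given in the sources used here, and tag numbers were not analysed.

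A peak belonged to a window if it overlapped it by at least 1 base. In place of random windows, all complete end-to-end windows of equal size from the first base of the chromosome were used, without removing unmappable sequence or the gene's own stretch. Ranks count from the highest score, with ties at the lowest rank. Every peak of both windows is given, which is the rule for what is named. Coordinates are 1-based. Members, windows and measures were chosen with earlier results of these data known. No mm9 sequence or annotation was used. Alternatives were score limits of 50 and 100, peak midpoints, joining of peaks within 1 kb, windows slid by 10 kb, windows with a peak only, and the middle part of each window (200 kb and 175 kb). Window counting was tested on simulated data. The tools were pandas 2.3.3 and numpy 2.4.6 under Python 3.11.15, with scipy 1.17.1 for intervals and matplotlib 3.10.9 for plots.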

Additional observations from a re-analysis of the deposited data

How the results depend on the processing

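The ratio of a window's peak number to the median of equal windows was 0.923 at Cblb and 1.18 at Met. Over 5 alternatives each it ranged from 0.923 to 1 and from 1 to 1.18. The Poisson intervals of the main ratios were 0.477 to 1.61 and 0.629 to 2.02. Since the alternatives reuse the same peaks, values within these wide intervals are no independent check. With a score limit of 100 the median window held 0 peaks, so no ratio could be formed. A higher score limit or a smaller window can only lower or keep the peak number, so the following values describe the windows and check nothing. The Cblb window held 2 peaks at a limit of 50 and 1 at a limit of 100, and the Met window 2 at either limit. The middle 175 kb of the Met window held 7 of 13 peaks, and the middle 200 kb of the Cblb window 8 of 12. The second Met peak of 100 or more lay outside the middle part, where only the peak of 190.8 reached 50. Midpoints or joining peaks within 1 kb left 12 and 13 peaks. No paired analysis was possible because there was 1 library per group and nothing was tested. For the same reason no library could be left out.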
